A study of Mus musculus with 6 samples.

Results

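The 45 genes described here are those of the glutathione and thioredoxin systems and of NRF2, the transcription factor encoded by Nfe2l2, among 19937 genes with a named probe set on the array. Members were taken by symbol, with no measured value in the rule, although the set was proposed with earlier results of these data known: the glutathione S-transferases (Gst), glutathione peroxidases (Gpx), peroxiredoxins (Prdx), thioredoxins (Txn) and thioredoxin reductases (Txnrd), together with Gclc, Gclm, Gss, Gsr, Slc7a11, Hmox1, Srxn1, Nfe2l2 and Keap1. The rule matched 48 symbols of the platform annotation. Of these, 45 had a probe set naming a single gene, and Gsta1, Gsta2 and Gstp2 had only probe sets naming several genes and carry no value of their own. No filter on low values was applied, so all 45 entered the test.

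Glutathione is a tripeptide of glutamate, cysteine and glycine that serves as the main soluble thiol of cells. It is made in the cytosol by glutamate-cysteine ligase and glutathione synthetase, is used by peroxidases and transferases to remove peroxides and reactive compounds, and is returned to its reduced form by glutathione reductase. Thioredoxins and peroxiredoxins form a parallel electron relay. NRF2 is held low by KEAP1, which hands it to a ubiquitin ligase, and GSK3 phosphorylation marks it for a second ligase; when stable, NRF2 binds antioxidant response elements near many of these genes.

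Transcripts were measured on 6 one-colour arrays of mouse embryonic stem cells, 3 labelled mESC_CHIR and 3 labelled mESC_XAV. The cells of both groups were a V6.5 line, Ctnnb1-BioFLneo;BirA, with a biotin and 3xFLAG tag on the endogenous β-catenin gene. They were kept with LIF in serum medium that contained β-mercaptoethanol, on feeder cells from DR4 mice. Cells were given 3 µM CHIR99021, an inhibitor of GSK3 that stabilises β-catenin, or XAV939, which acts against tankyrase and thereby favours β-catenin breakdown, for 24 h. The XAV939 dose was 3 µM in the sample labels and 1 µM in the treatment protocol. No untreated cells are among the 6 arrays, so each difference is CHIR99021 minus XAV939 and belongs to neither compound alone. Whether the 3 replicates came from different cultures is not in the labels, so a p-value here weighs only array-to-array spread.

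Values are log2 expression levels. A gene was called changed at an adjusted p under 0.05 in limma's moderated test over all 19937 genes, which called 1924 genes, or 9.65%, with 1058 (5.31%) higher and 866 (4.34%) lower. Array medians lay between 5.67 and 5.71. XAV939 replicate 1 stood apart on the second principal component (17.5% of the variance), and CHIR99021 replicate 3 to a smaller extent. Axin2, a feedback target of β-catenin, was 3.75-fold higher with CHIR99021 and Ctnnb1 differed by 0.018 ± 0.054 (SE). All 12 embryonic stem cell markers had levels over 5.68, the probe set median, with 3 higher (Esrrb by 0.60 ± 0.064), 5 lower (Tdgf1 by -0.63 ± 0.069) and 4 not past. The sum of their linear levels was 22000 to 22500 with CHIR99021 and 24400 to 25000 with XAV939. Of 24 feeder fibroblast markers, 8 rose, with the smallest p for Col1a1 (1.05 ± 0.055) and Pdgfrb (0.59 ± 0.054), 1, Mmp2, fell and 15 did not pass. The feeder markers' summed linear level was 3680 to 3970 with CHIR99021 and 2820 to 2950 with XAV939. Such a sum is carried mostly by the highest genes, here Tagln (mean 10.23 against 9.56) and Acta2 (9.65 against 9.29). Lum, Dcn, Postn and Fap, the lowest of that list, ranged from 3.98 to 4.47 over the 6 arrays and did not pass. Of 18 primitive endoderm markers, 2 rose (Sparc by 0.27 ± 0.055, Lama1 by 0.26 ± 0.052) and 1, Dab2, fell. Summed levels, with Sparc as the highest gene, were 2760 to 2860 with CHIR99021 and 2520 to 2640 with XAV939. The part of such cells in the results below was not tested, and in these bulk samples fewer cells of a type and less RNA per cell cannot be told apart.

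Of the 45 members, 15 (33.3%) passed, 10 higher with CHIR99021 (22.2%) and 5 lower (11.1%), beside 9.65%, 5.31% and 4.34% of all genes. The genes that rose were Gpx2, Gpx8, Gpx6, Gpx1, Gstm1, Gstm3, Gsto1, Gstz1, Gsta3 and Gss. The genes that fell were Gclm, Gclc, Hmox1, Gpx4 and Slc7a11. The median difference of the members was 0.0078, beside 0.0066 for all genes, and their median absolute difference was 0.10 against 0.062. Few calls were made at low levels: 12 of 45 were below 5.68, against 8654 of 19937 genes, and those 8654 held 195 of the 1924 calls. Without genes below that level, 14 of 33 members passed beside 16.6% of genes. In 22 members (48.9%) the 3 values of one treatment all lay on one side of the other's, beside 25.1% of all genes. Without XAV939 replicate 1 and CHIR99021 replicate 3 together, 14 members passed, 13 of them among the 15, beside 11.7% of genes. Lower members numbered 3 when replicate 1 or 2 of CHIR99021, or replicate 2 or 3 of XAV939, was omitted, because Gpx4 and Slc7a11 then missed the threshold. The plot of all members shows the families side by side.

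**Figure D1:**
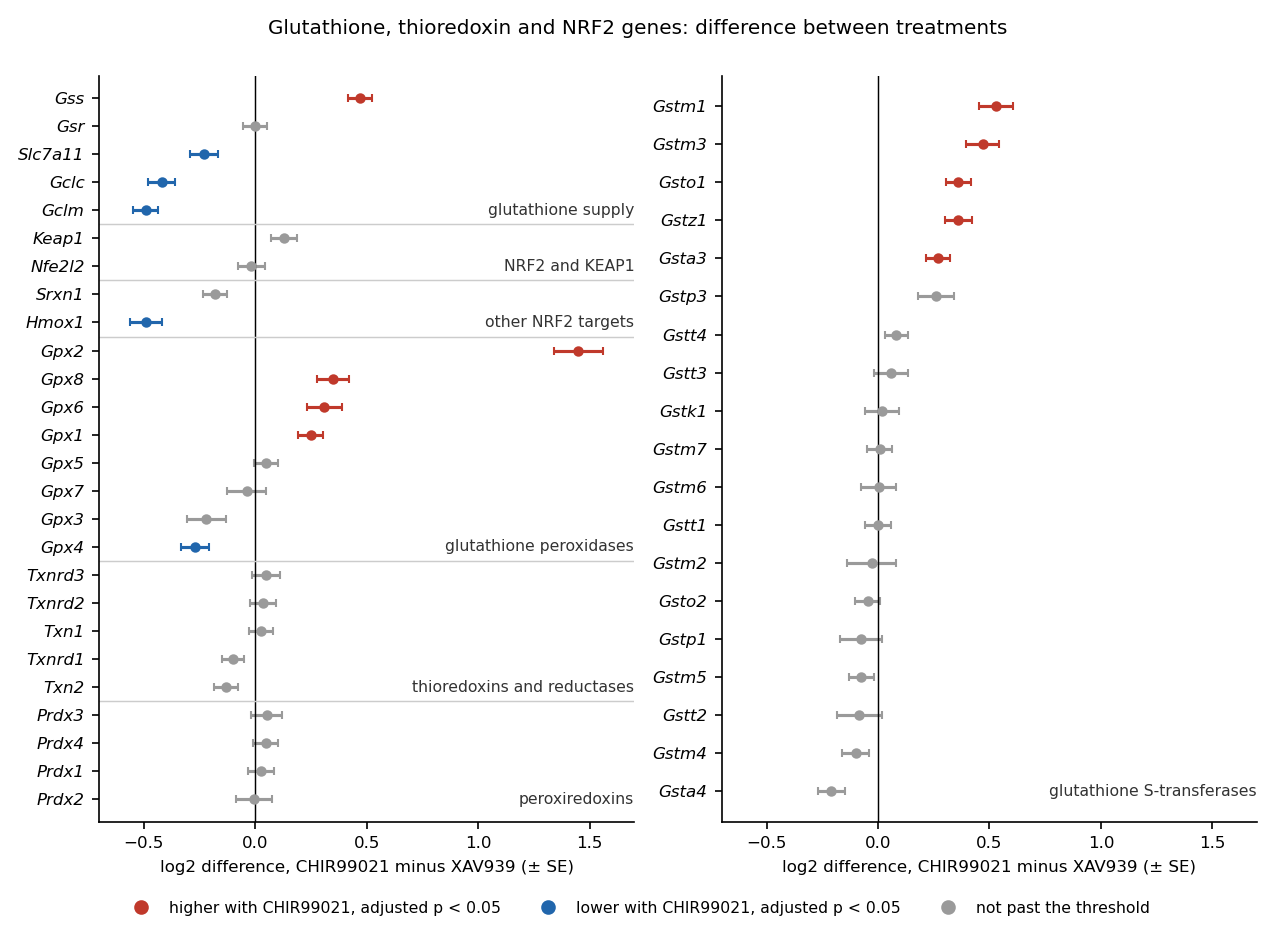
Log2 difference between treatments for the 45 members (x axis, CHIR99021 minus XAV939, points with the SE of the limma fit, 3 arrays per treatment), in blocks by family. Gpx2 stands furthest from 0 at 1.45, Gclm, Gclc and Slc7a11 lie left of 0 while Gss lies right, and the thioredoxin and peroxiredoxin blocks hold grey points alone.

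The supply of glutathione had 4 of 5 genes past the threshold (80.0%, beside 9.65% of all genes), 3 lower and 1 higher. Both subunits of glutamate-cysteine ligase, the rate-limiting enzyme, were lower with CHIR99021, whereas glutathione synthetase, which adds glycine in the next step, was higher. Gclm, the modifier subunit, was at 9.63, 9.50 and 9.62 with CHIR99021 and at 10.07, 10.10 and 10.05 with XAV939. Every CHIR99021 array lay below every XAV939 array, and the difference of -0.49 ± 0.056 (SE) was 1.40-fold (adjusted p = 2.81e-04). Gclc, the catalytic subunit, was at 8.82, 8.79 and 8.91 against 9.16, 9.29 and 9.31. It was 1.33-fold lower (-0.42 ± 0.062, adjusted p = 0.00149), again without overlap. Gss, the synthetase, was at 7.56, 7.62 and 7.59 against 7.13, 7.18 and 7.05, which made it 1.38-fold higher (0.47 ± 0.054, adjusted p = 2.99e-04). These 3 calls held in all 18 alternatives run for single genes.

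Slc7a11, the cystine-importing chain of the cystine/glutamate exchanger, was at 4.39, 4.53 and 4.49 with CHIR99021 and at 4.62, 4.69 and 4.79 with XAV939. All 6 values were under the probe set median of 5.68, where array signals are weak. The difference of -0.23 ± 0.063 passed narrowly (adjusted p = 0.0476) and was called in 8 of the 17 alternatives in which the gene was tested (adjusted p = 0.0164 to 0.186). Omitting any CHIR99021 array, or replicate 2 or 3 of XAV939, ended the call. Its partner chain Slc3a2, which is no member, was also lower (-0.22 ± 0.050, adjusted p = 0.0191), with the call ended (adjusted p up to 0.0864) by omission of replicate 1 or 2 of CHIR99021 or of replicate 2 or 3 of XAV939. Gsr, glutathione reductase, was at 10.71, 10.74 and 10.73 against 10.66, 10.77 and 10.76. Its groups overlapped, and the 95% confidence interval of the difference ran from -0.12 to 0.12.

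The regulators did not pass. Nfe2l2, encoding NRF2 itself, was at 8.78, 8.98 and 8.92 with CHIR99021 and at 8.88, 8.91 and 8.94 with XAV939, a difference of -0.017 ± 0.062 with an interval from -0.16 to 0.12. Keap1, encoding its adaptor for degradation, was at 7.70, 7.64 and 7.76 against 7.49, 7.58 and 7.62. Its CHIR99021 values all lay higher, yet the difference of 0.13 ± 0.058 missed the threshold (adjusted p = 0.217). The transcript says nothing of NRF2 protein, which is controlled mainly by degradation.

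Hmox1, haem oxygenase 1, which breaks down haem and is a widely used NRF2 target, was lower with CHIR99021. It was at 9.13, 9.20 and 9.32 against 9.84, 9.65 and 9.65 with XAV939, a 1.41-fold difference (-0.49 ± 0.071, adjusted p = 0.00119). Srxn1, sulfiredoxin, which restores over-oxidised peroxiredoxins, was at 8.03, 8.04 and 8.02 against 8.23, 8.26 and 8.13. Those groups did not overlap either, but the difference of -0.18 ± 0.054 did not pass (adjusted p = 0.0738).

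Promoter windows of 250 bases before to 50 after the start were held by the RefSeq table (GRCm38.p6) for 40 members, with several windows for 9 of them. Gclc, Gsr, Gsta4, Gstt2 and Hmox1 had no entry. The core of the antioxidant response element, TGACNNNGC, was searched on both strands. It occurred for 8 of the 40 members (20.0%), against 15.2% of the 15562 array genes that have a window. Among the 13 members that passed and had a window it occurred in 2 (15.4%), Gclm and Gsta3, of which one fell and the other rose. The share in the called members thus lay near the background, but 13 genes are too few to show a difference. Bases outside the windows were not searched, and Gclc and Hmox1, which were called, had no window. The 8 matches are shown with 10 bases on each side, on the strand that carries the core, with the core in capitals, so that its variable bases can be compared.
Gclm: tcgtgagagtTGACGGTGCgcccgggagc
Gsta3: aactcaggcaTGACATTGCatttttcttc
Gstm5: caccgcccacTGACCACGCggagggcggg
Gstm7: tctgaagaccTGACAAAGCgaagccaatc
Nfe2l2: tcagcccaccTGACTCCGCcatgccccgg
Prdx1: ctacgggggaTGACTCAGCgctttccctg
Srxn1: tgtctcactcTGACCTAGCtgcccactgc
Txnrd1: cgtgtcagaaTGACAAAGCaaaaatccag

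The Gclm match (chr3:122245413-122245441, minus strand) and the Gsta3 match (chr1:21240454-21240482, plus strand) have cores whose first base along the gene lies 134 and 121 bases before the respective start; the intervals include the flanks. The core of Prdx1, a member that did not pass, also holds TGACTCA, the site of AP-1 factors. The core CTTTGAT of TCF/LEF factors, the DNA-binding partners of β-catenin, was found on neither strand in any of the 40 members' windows, against 3.73% of the array genes. At so low a share, 40 genes are too few to show a lack of CTTTGAT. Other forms of the TCF/LEF core and more distant sites were not searched. The 250 bases before the start are printed for Gclm, which had the smallest adjusted p among the members that fell, and for Gpx2, which had the largest difference. Capitals mark the antioxidant response element core, here on the strand opposite to the gene. Gpx2 has neither TGACNNNGC nor CTTTGAT in this window, which does not speak to other forms of the TCF/LEF core.
Gclm, chr3:122245307-122245556, plus strand: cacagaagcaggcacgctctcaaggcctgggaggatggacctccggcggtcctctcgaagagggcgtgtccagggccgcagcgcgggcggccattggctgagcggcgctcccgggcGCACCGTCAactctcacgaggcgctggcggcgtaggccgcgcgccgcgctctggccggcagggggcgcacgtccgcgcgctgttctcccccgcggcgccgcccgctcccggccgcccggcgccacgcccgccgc
Gpx2, chr12:76795555-76795804, minus strand: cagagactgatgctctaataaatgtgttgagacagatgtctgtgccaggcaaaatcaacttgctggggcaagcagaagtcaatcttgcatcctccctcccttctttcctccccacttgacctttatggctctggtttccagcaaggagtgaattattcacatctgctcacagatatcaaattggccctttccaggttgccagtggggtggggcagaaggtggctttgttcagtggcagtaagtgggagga

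Glutathione peroxidases, which reduce peroxides at the expense of glutathione, had 5 of 8 genes past the threshold (62.5%, beside 9.65% of all genes), 4 higher and 1 lower. Gpx2, the peroxidase of gastrointestinal epithelium and a described target of both NRF2 and β-catenin in intestinal cells, was at 8.05, 8.18 and 8.32 with CHIR99021 and at 7.01, 6.64 and 6.54 with XAV939. The groups were far apart, and the 2.73-fold rise (1.45 ± 0.11, adjusted p = 2.06e-05) was exceeded in size by 23 of the 19937 genes. With any 1 array left out it stayed between 1.36 and 1.59. Gpx1, the ubiquitous cytosolic enzyme, was at 10.94, 11.00 and 10.91 against 10.64, 10.77 and 10.71. Its rise was small at 1.19-fold (0.25 ± 0.056, adjusted p = 0.0192), and adjusted p rose as far as 0.0981 when replicate 1 or 2 of CHIR99021 or replicate 3 of XAV939 was omitted.

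Gpx4, which reduces lipid hydroperoxides in membranes and protects cells from ferroptosis, moved against Gpx1 and Gpx2. It was at 11.18, 11.26 and 11.39 with CHIR99021 and at 11.58, 11.53 and 11.54 with XAV939, 1.21-fold lower (-0.27 ± 0.062, adjusted p = 0.0195). The groups did not overlap, and a second Gpx4 probe set gave -0.28 ± 0.048. Omitting either replicate 1 or 2 of CHIR99021, or either replicate 2 or 3 of XAV939, took its adjusted p past 0.05 and at most to 0.0859. Gpx1, Gpx2 and Gpx4 are selenoproteins, so the 3 selenium enzymes that passed did not share a direction.

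Gpx8, a peroxidase of the endoplasmic reticulum, was at 7.28, 7.13 and 7.34 against 6.86, 6.82 and 7.0 (0.35 ± 0.071, adjusted p = 0.00908). The call was lost without both arrays that stood apart and when all probe sets were tested (up to 0.0609). Gpx6, an olfactory peroxidase, was at 5.47, 5.53 and 5.54 against 5.01, 5.26 and 5.33, also under 5.68. Its difference of 0.31 ± 0.079 (adjusted p = 0.0334) was called in 10 of 17 alternatives and ended by omission of any CHIR99021 array or of XAV939 replicate 2 (adjusted p up to 0.119). Gpx5, its neighbour on the chromosome, differed by 0.048 ± 0.054. The remaining peroxidases, Gpx3, the secreted plasma enzyme (-0.22 ± 0.088, adjusted p = 0.175), and Gpx7 (-0.038 ± 0.088), did not pass.

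**Figure D2:**
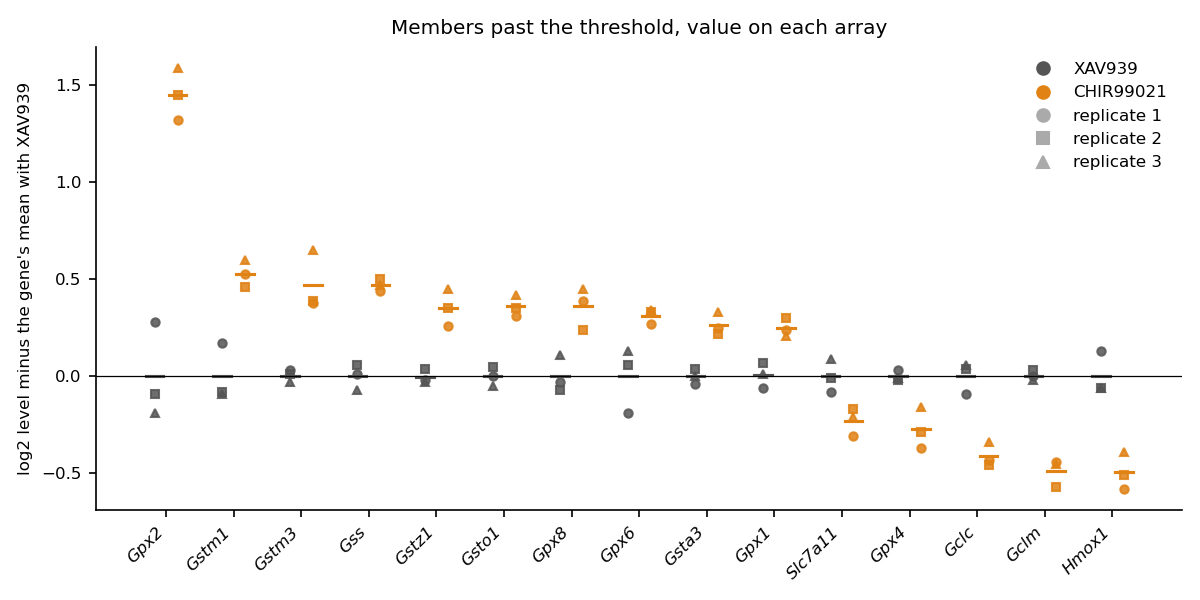
Log2 level on each of the 6 arrays for the 15 members past the threshold, minus the gene's mean with XAV939 (y axis); marker shapes give the replicate number, short lines the group means. CHIR99021 points lie wholly above or wholly below the XAV939 points in each gene, and the gap is widest in Gpx2.

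Glutathione S-transferases join glutathione to electrophiles and fall into classes named by a letter. Of 19 measured, 5 were called higher (26.3%, beside 5.31% of all genes), 0 lower and 14 in neither direction. The 14 ranged from -0.21 (Gsta4) to 0.26 (Gstp3), and 3 of them (21.4%) had groups without overlap. Among all genes that did not pass, 3090 of 18013 had groups without overlap. Gstm1, the mu-class enzyme commonly abundant in liver, was at 7.70, 7.63 and 7.77 with CHIR99021 and at 7.34, 7.09 and 7.08 with XAV939. It was 1.44-fold higher (0.53 ± 0.076, adjusted p = 0.00119), with XAV939 replicate 1 nearest to the CHIR99021 arrays. Gstm3 was at 6.93, 6.94 and 7.20 against 6.58, 6.56 and 6.52 (0.47 ± 0.073, adjusted p = 0.00207). A second probe set of Gstm3 gave 0.45 ± 0.14, with an adjusted p of 0.198 when all probe sets were tested, and the call was at 0.0529 with the probe set of highest variance per gene.

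The mu-class genes lie side by side on one chromosome in the order Gstm5, Gstm7, Gstm6, Gstm3, Gstm2, Gstm1 and Gstm4 (GRCm38.p6 gene table). Only Gstm3 and Gstm1 of these 7 passed. The probe set that represents Gstm3 is numbered among those of another chromosome. The second Gstm3 probe set, numbered with its own chromosome, did not pass in limma over all probe sets (0.45 ± 0.14, adjusted p = 0.198). Gstm2, which lies between Gstm3 and Gstm1, was at 6.64, 6.95 and 6.89 against 7.07, 6.84 and 6.66, with overlapping groups and an interval from -0.27 to 0.21. Gstm4, on the other side of Gstm1, differed by -0.10 ± 0.060, Gstm5 by -0.076 ± 0.056, Gstm7 by 0.0078 ± 0.055 and Gstm6 by 0.0027 ± 0.078. Gene copies of this kind can share probes, and how much of a signal belongs to which copy was not tested.

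The other transferases that rose belong to different classes. Gsto1, an omega-class enzyme that reduces dehydroascorbate and methylated arsenic, was at 8.86, 8.90 and 8.97 against 8.55, 8.60 and 8.5 (0.36 ± 0.055, adjusted p = 0.00170). Its neighbour Gsto2 was at 5.14 to 5.20 against 5.14 to 5.28 and did not pass. Gstz1, maleylacetoacetate isomerase of tyrosine breakdown, was at 6.81, 6.90 and 7.0 against 6.53, 6.59 and 6.52 (0.36 ± 0.061, adjusted p = 0.00378). Gsta3, an alpha-class enzyme, was at 6.07, 6.04 and 6.15 against 5.78, 5.86 and 5.82 (0.27 ± 0.055, adjusted p = 0.0101). None of these 3 genes had overlapping groups, and their calls held in all 18 alternatives, each at 0.05. At the stricter threshold of 0.01 Gsta3 was not called.

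Gsta4, the transferase for 4-hydroxynonenal, a product of lipid peroxidation, was at 11.10, 11.07 and 11.22 against 11.27, 11.35 and 11.40. The groups did not overlap, and the difference of -0.21 ± 0.061 missed the threshold at an adjusted p of 0.0605. It passed in 6 of 18 alternatives, among them without XAV939 replicate 1 and without CHIR99021 replicate 3 (adjusted p = 0.00707 to 0.23 over all). Gstp3 (0.26 ± 0.080, adjusted p = 0.072) passed when XAV939 replicate 3 was omitted and with array weights. Gstp1, the pi-class enzyme, was at 9.72, 9.88 and 10.08 against 10.11, 9.91 and 9.88, with full overlap. The 4 theta-class genes lie side by side, and their differences ran from -0.083 (Gstt2) to 0.083 (Gstt4), with none past the threshold. Gstk1 differed by 0.017 ± 0.075.

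None of the 5 thioredoxin genes and none of the 4 peroxiredoxin genes passed in limma, and of these 9 only 1, Txn2, had an unadjusted p under 0.05. Txn1, the cytosolic thioredoxin, was at 12.46, 12.48 and 12.52 with CHIR99021 and at 12.44, 12.51 and 12.43 with XAV939, an interval of -0.09 to 0.14. Txnrd1, its NADPH-dependent reductase and a common NRF2 target, was at 10.66, 10.61 and 10.69 against 10.74, 10.76 and 10.76. Its CHIR99021 values all lay lower, but the difference of -0.10 ± 0.051 did not pass (adjusted p = 0.306). Txn2, the mitochondrial thioredoxin, differed by -0.13 ± 0.055 (adjusted p = 0.212), also without overlap, and Txnrd2 and Txnrd3 by 0.034 ± 0.058 and 0.048 ± 0.061.

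Peroxiredoxins, abundant thiol peroxidases that thioredoxin keeps reduced, had differences from -0.0040 (Prdx2) to 0.052 (Prdx3), and the groups overlapped in all 4. Prdx1 was at 11.28, 11.20 and 11.39 against 11.25, 11.27 and 11.28, with an interval from -0.11 to 0.16. Its second probe set gave -0.080 ± 0.050, a sign opposite to the 0.026 of the first, and neither passed. The intervals of Prdx1, Prdx3, Prdx4 and Txn1 left room for differences of no more than 0.21 in either direction.

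**Figure D3:**
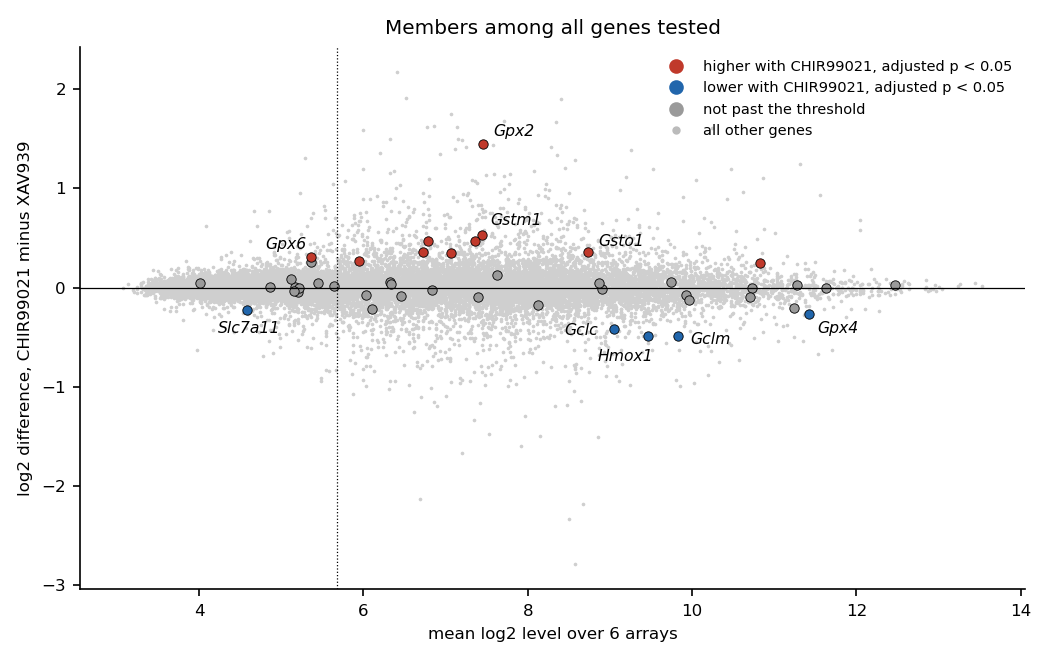
Log2 difference between treatments (y axis) against the mean log2 level over the 6 arrays (x axis) for all genes tested (grey) and the 45 members (large points). The dotted line marks 5.68, the median level of all probe sets; Slc7a11 and Gpx6 are the members past the threshold that lie left of it.

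How the calls of the 15 members depended on the settings is shown by the plot of adjusted p-values. Gpx2, Gclm, Gss, Gstm1, Hmox1, Gclc, Gsto1, Gstz1 and Gsta3 kept their call in all 18 alternatives, and Slc7a11, Gpx6, Gpx4 and Gpx1 were the members with the most lost calls.

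**Figure D4:**
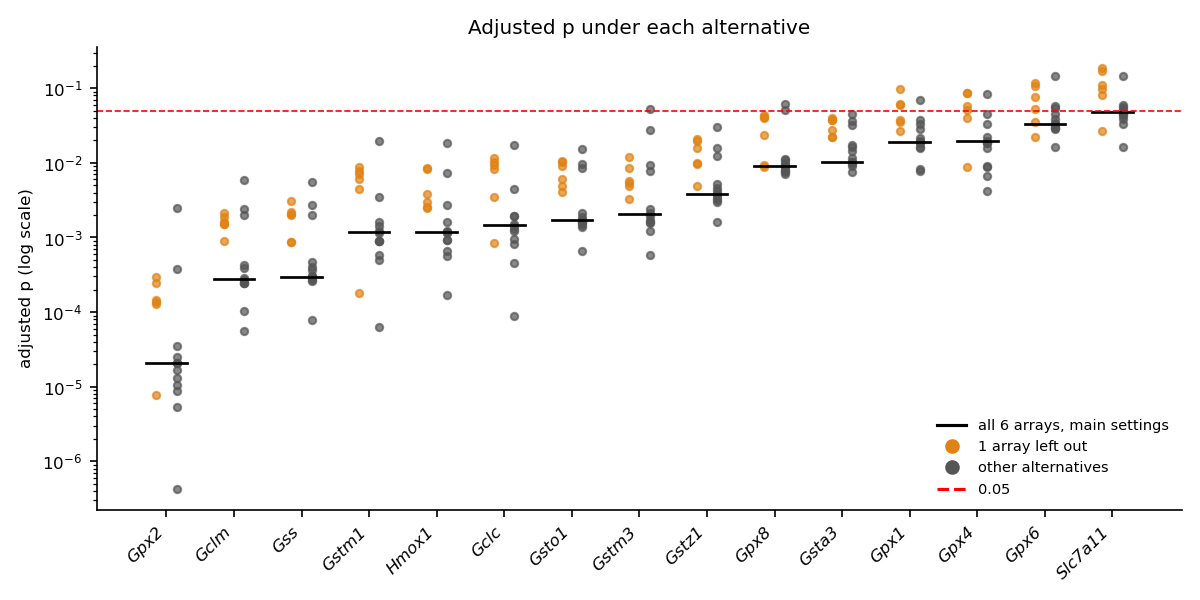
Adjusted p of the limma test (y axis, log scale) for the 15 members past the threshold, with all 6 arrays (black line), with 1 array left out (orange points) and under the other alternatives (grey points); the red dashed line is 0.05. Gpx2 stays at 0.00247 or below throughout, while the points of Slc7a11 and Gpx6 straddle the line.

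The rest of the pathway was read from 4 lists with 106 measured genes outside the member rule. Of these, 13 rose, 11 fell and 82 did not pass, so 22.6% passed beside 9.65% of all genes, with a median difference of 0.016. Only 20 of the 106 lay below 5.68. Without genes below that level 13 rose and 11 fell among the list genes left, beside 16.6% of all genes left. The 22.6% is a share of all 106 and is not the counterpart of that 16.6%. Lower genes numbered 7 when replicate 1 or 2 of CHIR99021 or replicate 3 of XAV939 was omitted. Each of those omissions ended the calls of the lower genes Slc3a2, described above, and Ggct, Nnt and Fth1, described next. The same omissions also ended the calls of Idh1, Abcc1 and Sqstm1, which were higher. The lists share genes, among them Glrx, Abcc1 and Abcc4.

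Among 33 other glutathione genes, 6 rose and 4 fell (30.3%, beside 9.65% of all genes). Oplah, 5-oxoprolinase, which returns glutamate from the γ-glutamyl cycle, was at 7.02, 7.10 and 7.31 with CHIR99021 and at 6.44, 6.54 and 6.39 with XAV939 (0.68 ± 0.078, adjusted p = 2.72e-04). Chac1, a γ-glutamylcyclotransferase that degrades glutathione, moved the other way, at 7.58, 7.44 and 7.38 against 8.21, 8.05 and 8.24 (-0.70 ± 0.072, adjusted p = 1.34e-04). Ggct, the enzyme that forms 5-oxoproline from γ-glutamyl amino acids, was also lower (-0.33 ± 0.087, adjusted p = 0.037) and was called in 11 of 18 alternatives. Of the genes just named, Chac1 and Ggct were thus lower and Oplah was higher.

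Clic1, a channel protein of the transferase fold, rose by 0.57 ± 0.079. Glo1, glyoxalase 1, which clears methylglyoxal with glutathione as cofactor, rose by 0.44 ± 0.064, and glutaredoxin (Glrx) by 0.36 ± 0.067. The export pump genes split, with Abcc1 higher (0.22 ± 0.049) and Abcc4 lower (-0.38 ± 0.062).

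Of 30 thioredoxin-linked and reductant genes, 3 rose and 3 fell (20.0%, beside 9.65% of all genes and 16.6% without genes below 5.68). Nxn, nucleoredoxin, a thioredoxin-fold protein that binds Dishevelled in the Wnt pathway, was at 9.39, 9.43 and 9.53 against 9.03, 8.86 and 8.91 (0.52 ± 0.063, adjusted p = 3.97e-04). Txnip, which binds and inhibits thioredoxin, was at 9.72, 9.74 and 9.84 against 10.21, 10.19 and 10.21 (-0.43 ± 0.053, adjusted p = 4.21e-04). Sesn2, a stress-induced sestrin, was lower by -0.35 ± 0.058. Among NADPH sources, Idh1 rose (0.33 ± 0.088, adjusted p = 0.042) and Nnt, the mitochondrial transhydrogenase, fell (-0.24 ± 0.056, adjusted p = 0.0194). Each of these last calls was lost under some alternatives, Idh1 in 7 of 18 and Nnt in 6 of 18.

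Of 40 further NRF2 targets and regulators, 5 rose and 4 fell (22.5%, beside 9.65% of all genes). Cbr3, a carbonyl reductase, had the largest difference of them, at 6.83, 6.89 and 6.75 with CHIR99021 and 7.73, 7.69 and 7.90 with XAV939, 1.93-fold lower (-0.95 ± 0.067, adjusted p = 1.16e-05). Pir, pirin, fell with it (-0.28 ± 0.054), as did Fth1, the ferritin heavy chain (-0.22 ± 0.051, adjusted p = 0.0233). Nqo1, the quinone reductase most often read as a marker of NRF2 activity, was at 8.19, 8.15 and 8.23 against 8.25, 8.28 and 8.24. Its difference of -0.066 ± 0.051 did not pass (adjusted p = 0.569). In the other direction, Maff, a small MAF partner of NRF2, rose by 0.38 ± 0.066, Ugdh by 0.32 ± 0.061, Ptgr1 by 0.23 ± 0.064 (adjusted p = 0.0493, called in 5 of 18 alternatives and not when any of 5 arrays was omitted) and Sqstm1, the KEAP1-binding autophagy receptor, by 0.21 ± 0.049. Genes described as NRF2 targets therefore stood on both sides of 0, as the members did.

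Among 11 genes of selenium supply and selenocysteine synthesis, 1 rose and 1 fell, and both encode receptors for selenoprotein P. That share of 18.2% was near the 16.6% of genes called without genes below 5.68, a level that all 11 reached. Lrp2, megalin, was at 7.04, 7.17 and 7.15 against 8.65, 8.69 and 8.83, 3.04-fold lower, and Lrp8 was at 7.49, 7.62 and 7.61 against 7.15, 7.24 and 7.11, 1.33-fold higher (0.41 ± 0.060). Both receptors also bind other ligands. The other 9 genes of that list, which act in selenocysteine synthesis, insertion or breakdown, did not pass.

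**Figure D5:**
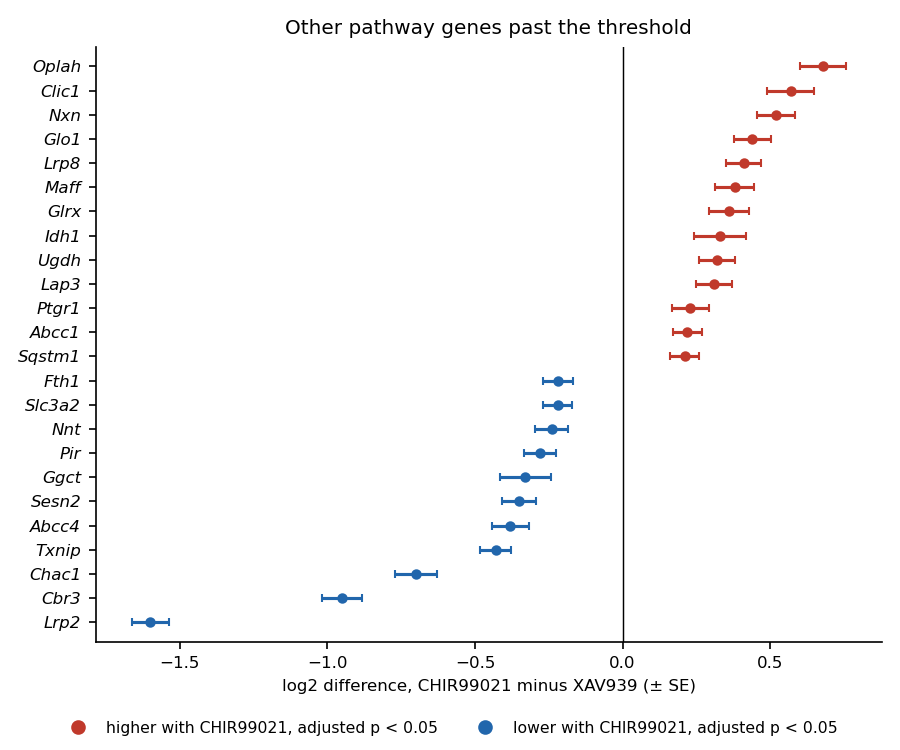
Log2 difference between treatments (x axis, CHIR99021 minus XAV939, with the SE of the limma fit, 3 arrays per treatment) for the 24 genes past the threshold in the 4 further pathway lists. Oplah is highest at 0.68, and Lrp2, Cbr3 and Chac1 are lowest.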

How the data were processed

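Log2 values, 1 per probe set and array, were deposited by the authors after RMA (background correction, quantile normalisation and probe summary), per the submitters' processing notes; for its version and the genome build, nothing is given in the sources used here. Of 34760 probe sets, 21640 named 1 gene, 1321 named several and 11799 were unnamed in the platform annotation. Each of the 19937 genes was represented by its probe set with the highest mean. Treatments were compared with limma 3.58.1 (lmFit, eBayes, R 4.3.3) on the 6 deposited arrays, with Benjamini-Hochberg adjustment over all genes. The fit had 4 residual and 6.15 prior degrees of freedom. With 3 against 3 arrays the smallest exact permutation p is 0.1, and that test was left out. Confidence intervals are the fit's, at 95% and unadjusted. Without scanner files, probe detection and scan batches were not examined; precision is limited by the number of arrays. The members and lists were chosen with earlier results of these data known. All members were accounted for; those past the threshold and 14 chosen by name were given in full, and of each of the 4 further pathway lists all genes past the threshold in a direction where 5 or fewer, otherwise the 4 with the smallest p. Of the marker lists, the 2 genes with the smallest p were named. Genes named outside this rule, Mmp2, Dab2, Gsta4, Gstp3, Txn2 and the neighbours of called genes among them, were chosen after their values were seen. Tested on simulated data of this design with 19937 genes, the fit recovered 73.2% of planted log2 differences of 0.3 and 99.6% of those of 0.5, and called 90 of 98685 unchanged genes. In the simulation far fewer genes were changed than were called in the data. Its noise was normal, independent between genes and arrays, and drawn from the fit's moderated variances. Those rates therefore need not hold for the data. Alternatives were normalisation, filters on level, the probe set per gene, the variance model, array weights, a replicate block, a stricter threshold and omitted arrays. A comparison of protein sequences between family members was not run. Plots were drawn with matplotlib 3.10.9.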

Additional observations from a re-analysis of the deposited data

How the results depend on the processing

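All 15 members past the threshold kept their direction in the 18 alternatives run for single genes (17 for Slc7a11 and Gpx6, which a filter on level removed), and 9 of them, Gclm, Gclc, Gss, Gpx2, Gstm1, Gsto1, Gstz1, Gsta3 and Hmox1, kept their call in all. With 1 array left out, 8 to 10 members were higher and 3 to 6 lower, 1254 to 2247 genes passed, 726 to 1130 higher and 528 to 1117 lower, and of the other pathway genes 9 to 13 were higher and 7 to 15 lower. With all probe sets tested, 698 probe sets were higher, 3 members lower and 7 other pathway genes lower. At a threshold of 0.01, which is not among those 18, 1118 genes passed, 621 higher and 497 lower, with 3 members and 7 other pathway genes lower. In all, 10 members passed at 0.01, and Gpx1, Gpx4, Gpx6, Gsta3 and Slc7a11 missed it. With array weights 1409 genes were lower, and Gsta4, Gstp3 and Srxn1 passed. The replicate numbers did not pair the arrays (correlations of deviations -0.0957, 0.0602 and -0.143). With the replicate number as a block 1578 genes passed, 10 members were higher and 4 lower (Slc7a11 was lost), and 7 other pathway genes were lower. For 16 genes that did not pass, 44 values changed sign, all between -0.08 and 0.087, Nfe2l2, Gsr, Prdx1 and Prdx2 among them. In the fits that lost a call the cause was not tested. Differences under about 0.3, and genes below the median level, are the least certain.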

Other observations

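Probe sets of this table are numbered largely by chromosome: of 21550 single-gene probe sets with a known chromosome, 610 (2.83%) carried a number whose neighbours belonged mostly to another one, counting 10 on each side. The probe sets that represent Gstm3, Prdx1 and Prdx2 were among these 610, with all 20 neighbours on 1 other chromosome. Each of these genes has a second probe set numbered with its own chromosome. The second sets gave 0.45 ± 0.14 for Gstm3, -0.080 ± 0.050 for Prdx1 and 0.0045 ± 0.068 for Prdx2, against 0.47, 0.026 and -0.0040.

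The 5 probe sets that name several genes of the rule gave no gene a value. The 3 shared by alpha-class transferases differed by 0.054, 0.072 and -0.070, and the 2 shared by pi-class transferases by 0.040 and 0.034, with adjusted p of 0.641 or more over all probe sets.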
